A study of Homo sapiens with 8 samples.

Results

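This report describes 48 genes of axon guidance and neural adhesion, matched by symbol to 48 of the 63677 Ensembl gene IDs in the counted annotation. The list of genes was chosen with earlier results of these data known. They are 17 semaphorins, the plexin and neuropilin receptors that bind them, netrins and their receptors, slits and robos, ephrins, and adhesion molecules of the immunoglobulin superfamily. RNA was sequenced from human lung adenocarcinoma cells of the PC9 line, which carries an activating EGFR mutation, in 4 groups of 2 libraries. PC9-BrM3 is a brain metastatic subline and was set against PC9 parental cells, both untransduced and cultured for 48 h. The shHSF1 group is PC9-BrM3 with the doxycycline-inducible vector Tet-pLKO carrying 1 hairpin (clone 7480) against HSF1, the heat shock transcription factor, and was set against shNTC, PC9-BrM3 with the same vector and a non-target hairpin. Cells of both hairpin groups were selected in puromycin for 5 days and then received 500 ng/mL doxycycline for 48 h. With 1 hairpin, effects of losing HSF1 and other effects of that hairpin cannot be told apart. The labels do not say whether the libraries of a group came from separate cultures, so the p-values measure the spread between these libraries, which may be technical.

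Guidance cues steer growing axons and migrating cells by attraction or repulsion. Secreted class 3 semaphorins signal through complexes of a neuropilin, which binds the ligand, and a plexin, which transmits the signal, while membrane-bound semaphorins mostly bind plexins directly. Netrins act through DCC, neogenin and UNC5 receptors, slits through robo receptors, and ephrins are cell-surface ligands of EPH receptor kinases. Outside the nervous system the same families act in vessel patterning, epithelial organisation and the movement of tumour cells, and adhesion molecules of the L1 and contactin families bind neurites to each other and to glia.

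Totals ran from 33550140 to 56715336 gene-assigned counts per library, and a count of 0 (taken as up to 3 counts) allows up to 0.0529 to 0.0894 CPM, the count scaled to library size. This limit covers counting error only. HSF1 stood at 15.6 and 13.5 normalized CPM in shHSF1, against 178 and 184 in shNTC, so the hairpin labels hold. On the same scale it stood at 54.6 and 52.7 CPM in untransduced PC9-BrM3 and at 47 and 50 CPM in PC9 parental cells. The shNTC level therefore lay above that of the untransduced subline, for a reason that was not tested. PC9-BrM3 replicate 2 stood apart, with 17.3% of its counts from mitochondrially encoded genes, against 1.4% to 6.23% in the other 7 libraries. Keratins and other epithelial markers summed to 3350 to 7480 CPM per library, but the lung lineage markers NKX2-1 and NAPSA stayed under 1 CPM everywhere. The 5 neuron markers summed to 0.54 CPM or less and STMN2 had no count. Among glial markers OLIG2 and MOG had no count, and only MBP passed 1 CPM, at 95.7 to 161 CPM. The fibroblast markers DCN and LUM had no count either, and leukocyte markers summed to 0.826 CPM or less. Among endothelial markers CDH5 stood at 18.7 to 55.3 CPM, but VWF at only 0.211 to 1.053 CPM and KDR at 0 to 0.018 CPM. Untransduced libraries were on lane 7 and transduced ones on lane 1, so both comparisons lie within a lane, and levels between the sets cannot be told apart from lane, vector, puromycin and doxycycline, nor from passage or stock of the cells, which the labels do not give.

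Most of the family was expressed in these carcinoma cells. Of the 48 genes, 37 passed 1 normalized CPM in at least 1 library and 27 passed 10 CPM. SEMA6A, SLIT3, CHL1, NFASC and CADM1 had no count in any of the 8 libraries. CADM1 is an adhesion molecule also known as TSLC1, a tumour suppressor of lung cancer. DCC, SEMA4G, NCAM2, SLIT2 and ROBO2 had 4 to 13 counts over all 8 libraries together. The classical netrin receptor DCC and the listed slits, SLIT2 and SLIT3, were thus at or near the counting limit throughout. SLIT1 is not among the 48 genes, and its level is not given here. Levels of different genes are compared per transcript length, in the length-scaled unit TPM over nuclear genes, which are mean levels of 2 libraries. In PC9-BrM3 the highest were NTN4 (233 TPM), PLXNB2 (126 TPM), EFNB2 (99.6 TPM), NRCAM (60.1 TPM) and NRP1 (59.9 TPM). PC9 parental cells had 177 TPM of NTN4, 119 TPM of PLXNB2, 169 TPM of EFNB2, 45.3 TPM of NRCAM and 77.2 TPM of NRP1. NTN4 is a laminin-related netrin of basement membranes, and neogenin (NEO1) and UNC5B were the netrin receptors among the 48 genes that passed 1 CPM, at 17.5 and 13.4 TPM in PC9-BrM3 and at 26.1 and 24.4 TPM in PC9 parental cells.

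**Figure D1:**
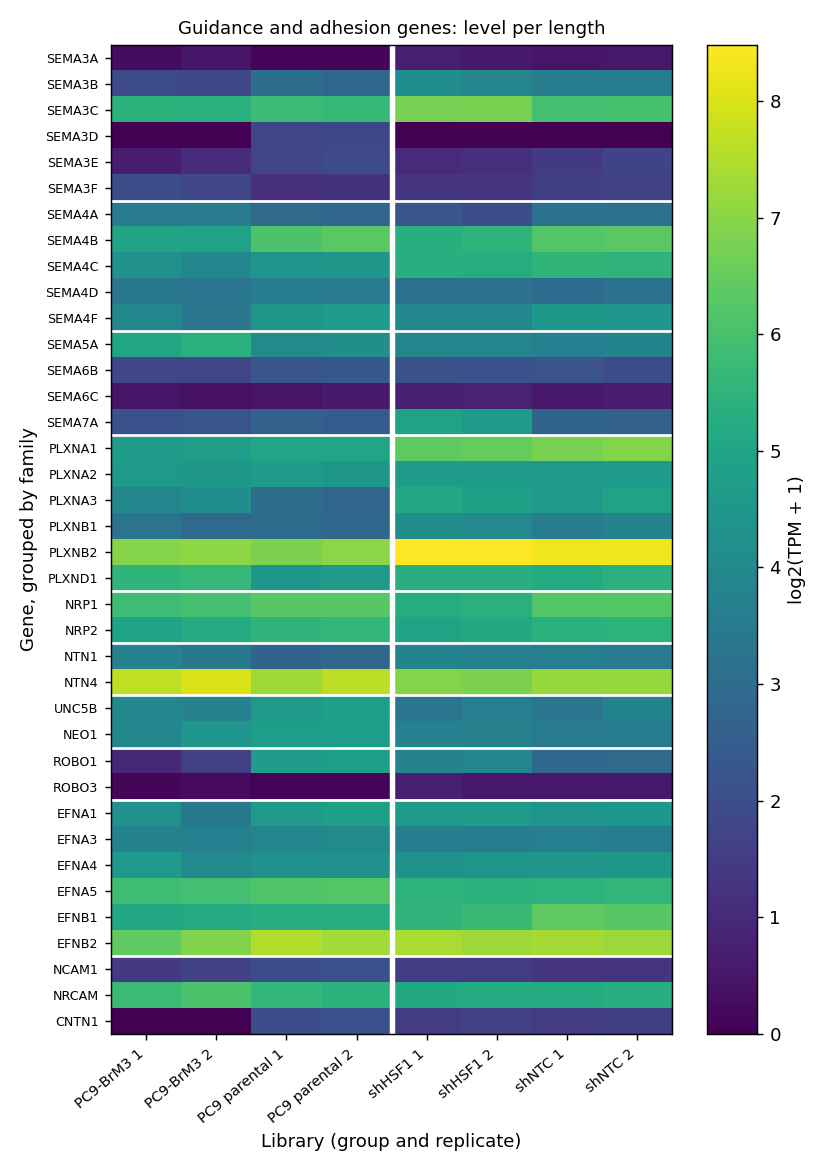
Level per length as log2(TPM + 1) (colour) of the 38 genes that reach 0.5 TPM in a library (rows, by family, white lines between families) in each of the 8 libraries (columns, untransduced left of the white bar and transduced right). ROBO1, CNTN1 and SEMA3D are darker in both PC9-BrM3 libraries than in PC9 parental, where CNTN1 and SEMA3D are also low, and PLXNB2 and NTN4 are among the brightest rows.

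The first comparison asks which neural cues differ in the brain metastatic line. In PC9-BrM3 the receptor ROBO1 was 16.9-fold lower than in PC9 parental cells (fewer expressing cells and less RNA per cell cannot be told apart in bulk RNA), and the contactin CNTN1 and the repellent SEMA3D were nearly or wholly without counts. SEMA3B, SEMA4B and the netrin receptor UNC5B were also lower, by 2.58-, 2.54- and 1.84-fold. SEMA5A, PLXNA3 and PLXND1 were higher, by 2.18-, 2.26- and 2.13-fold. Thus 3 genes were higher and 6 lower of 37 that passed the filter on low counts (edgeR quasi-likelihood test, adjusted p under 0.05 over all 17372 tested genes). At an unadjusted p under 0.05 there were 23. Here and below, counts at the unadjusted cutoff have no share over all tested genes beside them and cannot be set against the adjusted shares. In the background 3.87% of tested genes were called higher and 3.27% lower, 7.14% in all. The tested members' median log2 fold change was -0.36, also with SEMA3D at its bound, beside 0.01 over all tested genes. The members' shares and median are a description, since the list was chosen with earlier results of these data known. They cannot show that these genes as a list differ from the background. In addition, SEMA3D and CNTN1 passed the filter through PC9 parental cells alone. The count depended on the libraries. It was lower without a PC9 parental library and higher without a PC9-BrM3 library, and the count over all tested genes moved the same way. ROBO1, CNTN1 and SEMA3D passed in each of the 12 alternatives. For CNTN1 and SEMA3D this adds no support, since both passed the filter through PC9 parental cells alone.

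ROBO1 (ENSG00000169855, chromosome 3 from 78646390 to 79816965, minus strand, GRCh37) encodes the main slit receptor. It had 2.18 and 4.60 CPM in PC9-BrM3, against 54.0 and 58.7 CPM in PC9 parental cells. The groups lie far apart, and the spread inside PC9-BrM3 is large relative to its low level. The log2 fold change was -4.08 ± 0.37 (SE, n = 2 per group; edgeR adjusted p = 0.00606). It was -3.61 without PC9-BrM3 replicate 1 and -4.71 without PC9-BrM3 replicate 2, so the size of the fold rests on which low library is kept. On 1 scale for all 8 libraries ROBO1 stood at 15.3 and 16.2 CPM in shNTC and 30.1 and 33.3 CPM in shHSF1. Untransduced PC9-BrM3 had 2.25 and 4.78 CPM on that scale and PC9 parental cells 56 and 61.5 CPM. The depth of the fall was therefore not shared by all PC9-BrM3 libraries. ROBO3, a divergent robo, stood at 0.109 and 0.261 CPM in PC9-BrM3 and at 0.102 and 0.0914 CPM in PC9 parental cells and was not tested. ROBO2 had 0 counts in PC9-BrM3 and 8 and 5 counts in PC9 parental cells. ROBO1 was therefore the only robo of the list above 1 CPM in either untransduced group.

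CNTN1 (ENSG00000018236, chromosome 12 from 41086244 to 41466220, plus strand, GRCh37) encodes contactin 1, a lipid-anchored neural adhesion molecule of axons and paranodal junctions. Its counts were 0 and 1 in PC9-BrM3, against 272 and 289 in PC9 parental cells. PC9 parental cells thus had 444-fold more (95% counting interval of the ratio 79.3 to 17600; edgeR adjusted p = 0.00405). SEMA3D (ENSG00000153993, chromosome 7 from 84624869 to 84816171, minus strand, GRCh37), a secreted semaphorin, had no count in either PC9-BrM3 library, against 237 and 237 in PC9 parental cells. It was at least 125-fold lower in PC9-BrM3, taking 3 counts over the group as the limit (edgeR adjusted p = 0.00428). The transduced PC9-BrM3 libraries held 111 to 145 counts of CNTN1 each, so its near absence was not shared by all PC9-BrM3 libraries, whereas SEMA3D had 1 or 2 counts in each of them. Neither gene overlapped between PC9-BrM3 and PC9 parental cells, and both were of modest level in PC9 parental cells, at 3.18 TPM for CNTN1 and 2.50 TPM for SEMA3D.

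The windows of 250 bases before annotated starts of these 3 genes are shown because these genes had the largest differences of the list (RefSeq, GRCh38.p14, gene strand, 5′ to 3′). Counts per gene do not tell which annotated start was used in these cells. No capitals appear, since none holds a heat shock element as searched below. ROBO1 has 2 annotated starts, at chr3:79767999-79768248 (distal) and chr3:79019460-79019709 (proximal), both on the minus strand. The CNTN1 window is chr12:40827934-40828183 on the plus strand, the first of 2, and the SEMA3D window chr7:85187057-85187306 on the minus strand. Their G and C content was 48% (ROBO1 distal), 56.8% (ROBO1 proximal), 47.2% (CNTN1) and 57.6% (SEMA3D), with 9, 12, 5 and 13 CG dinucleotides in that order.
ROBO1 distal: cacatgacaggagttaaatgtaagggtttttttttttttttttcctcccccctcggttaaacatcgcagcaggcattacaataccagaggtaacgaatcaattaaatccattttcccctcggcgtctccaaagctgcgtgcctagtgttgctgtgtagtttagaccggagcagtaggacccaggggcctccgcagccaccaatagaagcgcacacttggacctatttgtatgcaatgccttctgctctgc
ROBO1 proximal: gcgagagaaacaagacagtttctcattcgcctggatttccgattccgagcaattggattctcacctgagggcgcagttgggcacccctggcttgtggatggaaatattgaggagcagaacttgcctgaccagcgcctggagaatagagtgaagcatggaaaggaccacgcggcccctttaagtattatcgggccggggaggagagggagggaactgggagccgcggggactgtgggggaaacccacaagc
CNTN1: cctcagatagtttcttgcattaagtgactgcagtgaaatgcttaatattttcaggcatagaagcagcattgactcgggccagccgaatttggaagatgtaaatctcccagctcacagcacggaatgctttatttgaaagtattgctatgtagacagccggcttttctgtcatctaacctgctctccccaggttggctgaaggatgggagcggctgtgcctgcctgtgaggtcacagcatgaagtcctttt
SEMA3D: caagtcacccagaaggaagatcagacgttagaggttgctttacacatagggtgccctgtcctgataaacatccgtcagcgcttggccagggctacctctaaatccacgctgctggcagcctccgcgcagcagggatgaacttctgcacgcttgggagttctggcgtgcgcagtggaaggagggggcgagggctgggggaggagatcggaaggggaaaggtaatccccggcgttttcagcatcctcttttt

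Among the other class 3 semaphorins, SEMA3B, a secreted semaphorin from the lung tumour suppressor region of chromosome 3p, had 3.27 and 3.01 CPM in PC9-BrM3, against 8.76 and 7.45 CPM in PC9 parental cells. It was lower without overlap (log2 fold change -1.37 ± 0.22, SE; edgeR adjusted p = 0.0251), and lost its call without either PC9 parental library. SEMA3C, the most abundant of the class, stood at 54.9 and 52.3 CPM in PC9-BrM3 and 71.6 and 66.5 CPM in PC9 parental cells and did not pass (log2 fold change -0.37 ± 0.14; edgeR adjusted p = 0.188). SEMA3A, the founding repellent of the class, had 0.400 and 0.811 CPM in PC9-BrM3 and 0.102 and 0.238 CPM in PC9 parental cells (log2 fold change 1.79 ± 0.60; edgeR adjusted p = 0.141). SEMA3A was low in all 4 libraries. SEMA3E, a ligand of PLXND1, had 0.763 and 1.56 CPM in PC9-BrM3 and 3.38 and 4.06 CPM in PC9 parental cells (-1.70 ± 0.40; edgeR adjusted p = 0.0644), and it passed with DESeq2 and with limma. SEMA3F, a ligand of NRP2, had 3.05 and 2.49 CPM in PC9-BrM3 and 1.25 and 1.37 CPM in PC9 parental cells (1.09 ± 0.27; edgeR adjusted p = 0.0751), and it passed with DESeq2 but not with limma.

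Of the membrane-bound class 4, SEMA4B had 43.2 and 41.2 CPM in PC9-BrM3, against 98.6 and 116 CPM in PC9 parental cells (log2 fold change -1.35 ± 0.16, SE; edgeR adjusted p = 0.0109). Its call was lost without PC9 parental replicate 2 (adjusted p = 0.0542). SEMA4A had 14.2 and 14.2 CPM in PC9-BrM3 and 9.12 and 8.37 CPM in PC9 parental cells, with a log2 fold change of 0.70 ± 0.18 that did not pass with edgeR (adjusted p = 0.0802) or limma and passed with DESeq2. For SEMA4F these were 12.7 and 8.54 CPM, against 19.6 and 23 CPM in PC9 parental cells (-1.0 ± 0.24; edgeR adjusted p = 0.0721), and it passed with DESeq2 and with limma. SEMA4C and SEMA4D did not overlap between the groups and did not pass. SEMA4C had 23.4 and 18.7 CPM in PC9-BrM3 and 26.6 and 27.5 CPM in PC9 parental cells (-0.36 ± 0.18; edgeR adjusted p = 0.271). SEMA4D, the PLXNB1 ligand, had 27.7 and 26.2 CPM in PC9-BrM3 and 31.4 and 31.3 CPM in PC9 parental cells (-0.22 ± 0.15; edgeR adjusted p = 0.397).

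SEMA5A, a transmembrane semaphorin with thrombospondin repeats, had 76.7 and 101 CPM in PC9-BrM3, against 38.1 and 43.5 CPM in PC9 parental cells. The PC9-BrM3 libraries were both higher, with a wide gap between them (log2 fold change 1.12 ± 0.19, SE; edgeR adjusted p = 0.0295). SEMA7A had 3.01 and 3.19 CPM in PC9-BrM3 and 4.78 and 4.13 CPM in PC9 parental cells and did not pass (-0.52 ± 0.23; edgeR adjusted p = 0.227). SEMA6B and SEMA6C, at 0.376 to 3.73 CPM over the 4 libraries, had log2 fold changes of -0.69 and -0.37 (edgeR adjusted p = 0.146 and 0.606).

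On the receptor side, PLXND1, the receptor of SEMA3E, had 91.9 and 99.3 CPM in PC9-BrM3, against 42.7 and 47.2 CPM in PC9 parental cells (log2 fold change 1.09 ± 0.15, SE; edgeR adjusted p = 0.0164). PLXNA3, which signals with neuropilins, had 21.1 and 26.1 CPM in PC9-BrM3, against 11.3 and 9.57 CPM in PC9 parental cells (log2 fold change 1.18 ± 0.20, SE; edgeR adjusted p = 0.0286). Both were higher without overlap. The calls of PLXND1, PLXNA3 and SEMA5A were each lost without either PC9 parental library, at adjusted p of up to 0.24, 0.266 and 0.252 over their alternatives, with log2 fold changes between 0.89 and 1.33. PLXNB2, the most abundant plexin, had 179 and 196 CPM in PC9-BrM3 and 166 and 194 CPM in PC9 parental cells, which overlap (log2 fold change 0.06 ± 0.15; edgeR adjusted p = 0.834). PLXNA1 had 54 and 58.2 CPM in PC9-BrM3 and 69 and 70.9 CPM in PC9 parental cells (-0.32 ± 0.14; edgeR adjusted p = 0.232). PLXNA2 had 62.8 and 61 CPM in PC9-BrM3 and 69.5 and 61.9 CPM in PC9 parental cells (-0.09 ± 0.15; edgeR adjusted p = 0.743). PLXNB1, the SEMA4D receptor, overlapped at 17.2 and 13.3 CPM in PC9-BrM3 and 14 and 13 CPM in PC9 parental cells (0.18 ± 0.20; edgeR adjusted p = 0.613). Of the 6 plexins, 2 thus were called, both higher.

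The neuropilins did not pass the test in this comparison, by edgeR, DESeq2 or limma, although both had an unadjusted p under 0.05. NRP1 had 134 and 148 CPM in PC9-BrM3 and 183 and 188 CPM in PC9 parental cells (log2 fold change -0.39 ± 0.14; edgeR adjusted p = 0.166). NRP2 had 68.5 and 84.7 CPM in PC9-BrM3 and 104 and 113 CPM in PC9 parental cells (-0.51 ± 0.17; edgeR adjusted p = 0.137).

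UNC5B, a netrin receptor that also acts in vessel branching, had 20.1 and 17.6 CPM in PC9-BrM3, against 31.6 and 37.8 CPM in PC9 parental cells. The groups do not overlap. UNC5B passed close to the threshold (log2 fold change -0.88 ± 0.18, SE; edgeR adjusted p = 0.0432) and lost its call without either PC9 parental library. NEO1 had 23.8 and 34.4 CPM in PC9-BrM3 and 43.6 and 44.7 CPM in PC9 parental cells (-0.60 ± 0.21; edgeR adjusted p = 0.154). Among the ligands, NTN1, the classical netrin, had 16.6 and 12.9 CPM in PC9-BrM3 and 7.48 and 8.59 CPM in PC9 parental cells (0.88 ± 0.21; edgeR adjusted p = 0.0721), and it passed with DESeq2 and with limma. NTN4 overlapped between groups, at 173 and 225 CPM in PC9-BrM3 and 133 and 174 CPM in PC9 parental cells (edgeR adjusted p = 0.314).

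Ephrins did not pass by edgeR, with 0 of 6 called and 2 at an unadjusted p under 0.05, while DESeq2 and limma each called 1 lower. That gene was EFNB2, a ligand of EPHB4 in vessels, with 75.7 and 106 CPM in PC9-BrM3 and 166 and 147 CPM in PC9 parental cells (log2 fold change -0.78 ± 0.21; edgeR adjusted p = 0.0851). EFNA5 had 65.7 and 71.2 CPM in PC9-BrM3 and 81.5 and 86.6 CPM in PC9 parental cells (-0.30 ± 0.14; edgeR adjusted p = 0.265). EFNB1 had 22.1 and 23.9 CPM in PC9-BrM3 and 26.3 and 26.2 CPM in PC9 parental cells (-0.19 ± 0.15; edgeR adjusted p = 0.471). EFNA1 had 9.7 and 5.15 CPM in PC9-BrM3 and 12.1 and 14.5 CPM in PC9 parental cells (-0.84 ± 0.33; edgeR adjusted p = 0.189). EFNA3 and EFNA4, at 4.05 to 6.74 CPM, had log2 fold changes of -0.27 and 0.03 (edgeR adjusted p = 0.46 and 0.963). Of the adhesion molecules, NRCAM of the L1 family had 87.0 and 109 CPM in PC9-BrM3 and 78.0 and 71.7 CPM in PC9 parental cells (0.39 ± 0.17; edgeR adjusted p = 0.228). NCAM1, the neural cell adhesion molecule, had 4.52 and 5.82 CPM in PC9-BrM3 and 8.20 and 9.10 CPM in PC9 parental cells (-0.74 ± 0.23; edgeR adjusted p = 0.115).

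**Figure D2:**
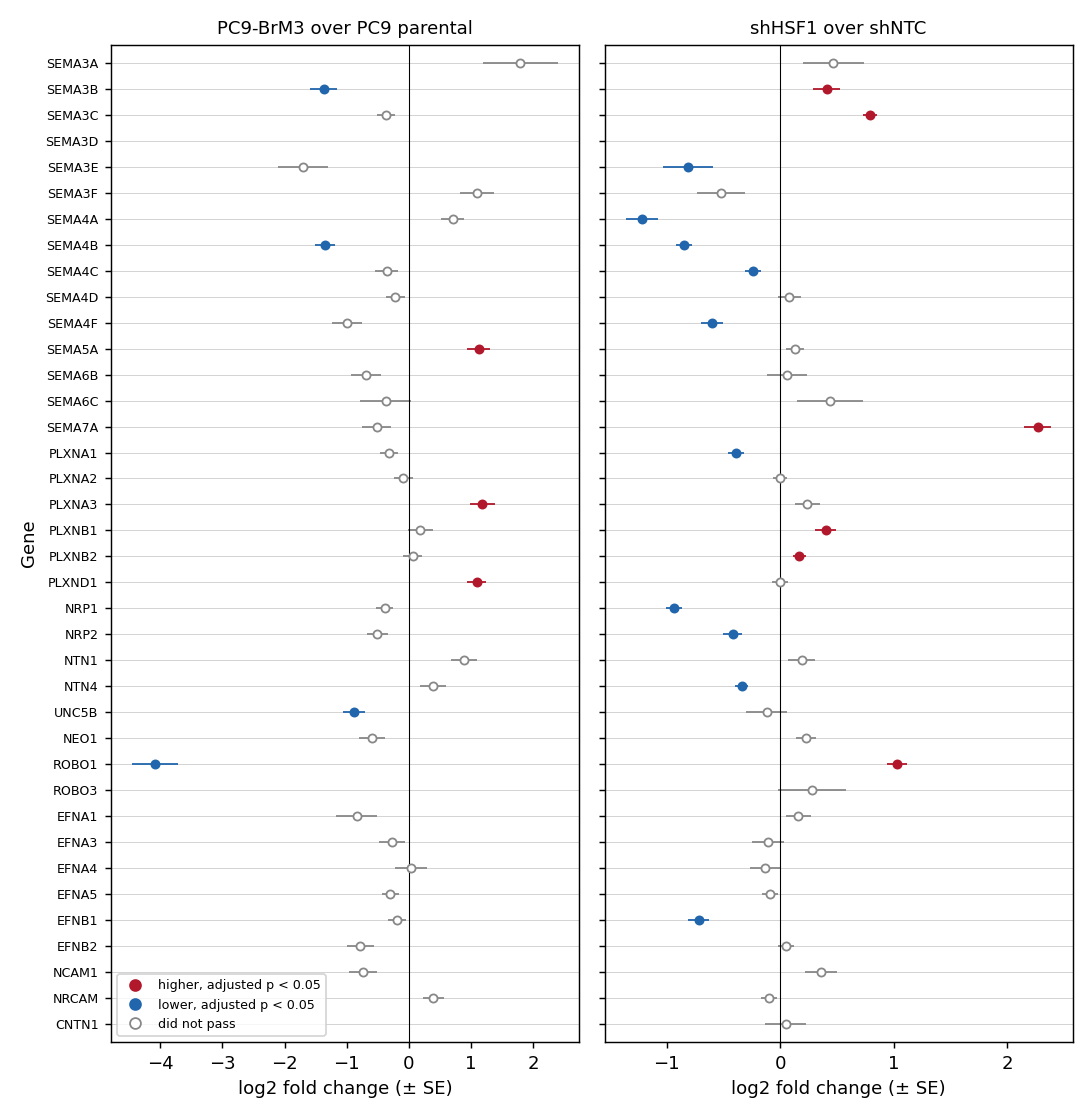
Log2 fold change with its SE for the 38 genes tested in at least 1 comparison (rows), for PC9-BrM3 over PC9 parental (left) and shHSF1 over shNTC (right, on its own scale), filled where adjusted p is under 0.05. SEMA3D and CNTN1 are not drawn on the left, where PC9-BrM3 had 0 and 1 counts, and ROBO1 lies farthest left there at -4.08, while SEMA7A lies farthest right in the knockdown at 2.27.

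The second comparison asks which of the 48 genes change when the metastatic subline carries the HSF1 hairpin. With shHSF1, SEMA7A was 4.84-fold, ROBO1 2.05-fold and SEMA3C 1.73-fold higher than with shNTC, and 4 of 5 tested class 4 semaphorins, both neuropilins and the ephrin EFNB1 were lower. In all, 6 genes were higher and 10 lower of 37 tested. This share of 43.2% is near the background, where 45.7% of 16840 tested genes were called (22.2% higher and 23.5% lower), so it is no result about these genes as a list. The tested members' median log2 fold change was 0.05, beside 0.01 over all tested genes. Of the 16 calls, 10 held in each of the 12 alternatives: SEMA3C, SEMA4A, SEMA4B, SEMA4F, SEMA7A, PLXNA1, NRP1, NRP2, ROBO1 and EFNB1.

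SEMA7A (ENSG00000138623, chromosome 15 from 74701630 to 74726808, minus strand, GRCh37) encodes a lipid-anchored semaphorin that binds integrins and PLXNC1. It had 28.8 and 24.9 CPM in shHSF1, against 5.73 and 5.34 CPM in shNTC, with no overlap (log2 fold change 2.27 ± 0.12, SE, n = 2 per group; edgeR adjusted p = 6.2e-07). Over the alternatives its log2 fold change lay between 2.17 and 2.38. SEMA4A (ENSG00000196189, chromosome 1 from 156117157 to 156147543, plus strand, GRCh37), which also acts on immune cells, went the other way, with 5.61 and 4.84 CPM in shHSF1, against 12.9 and 11.4 CPM in shNTC (log2 fold change -1.22 ± 0.14; edgeR adjusted p = 6.68e-05).

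Promoter windows were searched for a part of the heat shock element, the DNA word of heat shock factors. The part was spelled TTCNNGAA or GAANNTTC, each of which reads the same on both strands. A match to 8 letters is a description and no evidence of binding. Among 35116 RefSeq windows of 250 bases, 11.6% held at least 1 match. Of the 48 genes 40 had a window, and these genes had 67 windows, of which 6 (8.96%) held a match. The 6 include overlapping windows of SEMA3B that hold the same match, so that site is counted more than once. By gene, 5 of the 40 (12.5%) had a match in 1 or more windows, namely NCAM2, NRCAM, SEMA3B, SEMA4A and SEMA7A. The share by gene cannot be set against the 11.6% of windows, since some genes have several windows. The windows with a match of SEMA7A (chr15:74433959-74434208, minus strand) and SEMA4A (chr1:156154298-156154547, plus strand) are shown because these genes had the largest rise and the largest fall in the knockdown (RefSeq, GRCh38.p14, 5′ to 3′). Capitals mark the match, which begins 145 bases before the annotated start in SEMA7A and 134 bases before it in SEMA4A, each at 1 of several annotated starts.
SEMA7A: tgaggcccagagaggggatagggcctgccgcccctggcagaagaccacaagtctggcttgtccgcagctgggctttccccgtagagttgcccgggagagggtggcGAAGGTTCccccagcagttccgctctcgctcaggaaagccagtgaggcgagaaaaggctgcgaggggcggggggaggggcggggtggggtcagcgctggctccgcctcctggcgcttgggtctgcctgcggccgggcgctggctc
SEMA4A: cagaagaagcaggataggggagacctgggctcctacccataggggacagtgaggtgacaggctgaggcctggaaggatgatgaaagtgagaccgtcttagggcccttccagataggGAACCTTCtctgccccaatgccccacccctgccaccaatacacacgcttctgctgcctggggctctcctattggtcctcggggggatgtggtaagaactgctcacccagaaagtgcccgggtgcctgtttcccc

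The other class 4 calls were smaller. SEMA4B had 64.4 and 71.8 CPM in shHSF1, against 120 and 126 CPM in shNTC (log2 fold change -0.85 ± 0.07, SE; edgeR adjusted p = 1.18e-05). SEMA4F had 14.7 and 14.6 CPM in shHSF1, against 23 and 21.4 CPM in shNTC (-0.60 ± 0.10; edgeR adjusted p = 0.000726). SEMA4C had 56.1 and 52.9 CPM in shHSF1, against 66.0 and 62.8 CPM in shNTC (-0.24 ± 0.07; edgeR adjusted p = 0.0171). The SEMA4C call was lost in 4 alternatives, without shNTC replicate 1, without shHSF1 replicate 2, with upper-quartile factors and with all 8 libraries in 1 fit (adjusted p of at most 0.174). SEMA4D, with 25.0 and 26.7 CPM in shHSF1 and 22.7 and 26.1 CPM in shNTC, overlapped and did not pass (0.08 ± 0.10; edgeR adjusted p = 0.52).

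Among secreted semaphorins, SEMA3C had 153 and 158 CPM in shHSF1, against 88.3 and 91.4 CPM in shNTC (log2 fold change 0.79 ± 0.06, SE; edgeR adjusted p = 5.76e-06). SEMA3B had 21.6 and 17.8 CPM in shHSF1, against 15.2 and 14.5 CPM in shNTC (0.41 ± 0.12; edgeR adjusted p = 0.0157). SEMA3E had 1.62 and 1.91 CPM in shHSF1, against 2.69 and 3.52 CPM in shNTC (-0.81 ± 0.22; edgeR adjusted p = 0.0128). So SEMA3C and SEMA3B rose and SEMA3E fell. The calls of SEMA3B and SEMA3E were lost without shNTC replicate 2 and without shHSF1 replicate 1, and in the fit of all 8 libraries (adjusted p of at most 0.144 and 0.114). SEMA3A and SEMA3F did not pass (0.47 ± 0.27 and -0.52 ± 0.21; edgeR adjusted p = 0.181 and 0.0666). SEMA3D had 1 and 2 counts in shHSF1 and 2 and 1 counts in shNTC and was not tested. SEMA5A had 38.4 and 38.2 CPM in shHSF1 and 33.5 and 36.5 CPM in shNTC and did not pass (0.13 ± 0.08; edgeR adjusted p = 0.213), and SEMA6B and SEMA6C had log2 fold changes of 0.06 and 0.44 (edgeR adjusted p = 0.819 and 0.244).

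Both neuropilins and PLXNA1 were lower with shHSF1. NRP1 (ENSG00000099250, chromosome 10 from 33466420 to 33625190, minus strand, GRCh37), a co-receptor of class 3 semaphorins and of VEGF, had 97.4 and 109 CPM in shHSF1, against 198 and 197 CPM in shNTC (log2 fold change -0.94 ± 0.07, SE; edgeR adjusted p = 4.52e-06). NRP2 had 76.9 and 90.3 CPM in shHSF1, against 111 and 114 CPM in shNTC (-0.42 ± 0.08; edgeR adjusted p = 0.00188). PLXNA1, a signalling partner of neuropilins, had 206 and 224 CPM in shHSF1, against 269 and 296 CPM in shNTC (-0.39 ± 0.07; edgeR adjusted p = 0.00108). The neuropilins and PLXNA1 held in each alternative, but the adjusted p of NRP2 reached 0.0498.

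PLXNB1 and PLXNB2, receptors of class 4 semaphorins, were slightly higher, while PLXNB3, which is not among the 48 genes, was lower. PLXNB1 had 38.2 and 33.9 CPM in shHSF1, against 25.8 and 28.9 CPM in shNTC (log2 fold change 0.40 ± 0.09, SE; edgeR adjusted p = 0.00645), and lost its call without shNTC replicate 1 and in the fit of all 8 libraries. PLXNB2 had 589 and 594 CPM in shHSF1, against 535 and 519 CPM in shNTC, only 1.12-fold more (0.17 ± 0.06; edgeR adjusted p = 0.0317). That call was lost without any 1 of the 4 libraries, with no count filter and in the fit of all 8 libraries (adjusted p of at most 0.401). The remaining plexins overlapped between the groups. PLXNA2 had 77 and 75.9 CPM in shHSF1 and 75.2 and 77.7 CPM in shNTC (edgeR adjusted p = 1). PLXNA3 had 56.7 and 49.1 CPM in shHSF1 and 40.2 and 49.5 CPM in shNTC (0.24 ± 0.11; edgeR adjusted p = 0.0984). PLXND1 had 85.6 and 89.5 CPM in shHSF1 and 82.1 and 92.5 CPM in shNTC (edgeR adjusted p = 0.965).

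ROBO1 had 31.6 and 34.8 CPM in shHSF1, against 15.9 and 16.6 CPM in shNTC (log2 fold change 1.03 ± 0.09, SE; edgeR adjusted p = 1.68e-05), and both shHSF1 libraries were clear of both shNTC libraries. ROBO3 had 1.1 and 0.822 CPM in shHSF1 and 0.834 and 0.755 CPM in shNTC (0.28 ± 0.30; edgeR adjusted p = 0.481). NTN4 had 113 and 106 CPM in shHSF1, against 142 and 135 CPM in shNTC (-0.34 ± 0.06; edgeR adjusted p = 0.00177), a call lost in the fit of all 8 libraries. NTN1 overlapped, at 19.3 and 17.5 CPM in shHSF1 and 17.5 and 14.7 CPM in shNTC (edgeR adjusted p = 0.211). The netrin receptors gave 0 calls of 2 tested by edgeR, DESeq2 and limma, with 1 at an unadjusted p under 0.05 by edgeR. NEO1 had 23.3 and 22.8 CPM in shHSF1 and 19.8 and 19.5 CPM in shNTC (0.23 ± 0.09; edgeR adjusted p = 0.0587), and UNC5B had 14.1 and 18.1 CPM in shHSF1 and 14.6 and 20.6 CPM in shNTC (edgeR adjusted p = 0.613).

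EFNB1, an X-linked ephrin that binds EPHB receptors, had 33.5 and 39.9 CPM in shHSF1, against 63.3 and 57.7 CPM in shNTC (log2 fold change -0.72 ± 0.09, SE; edgeR adjusted p = 0.000186). It was the only ephrin of 6 called in this comparison. EFNB2 overlapped, at 173 and 157 CPM in shHSF1 and 168 and 150 CPM in shNTC (edgeR adjusted p = 0.6), and EFNA5 had 56.7 and 55.2 CPM in shHSF1 and 58.4 and 60.6 CPM in shNTC (edgeR adjusted p = 0.311). EFNA1 had 13.2 and 14.4 CPM in shHSF1 and 11.9 and 12.8 CPM in shNTC (edgeR adjusted p = 0.267), and EFNA3 and EFNA4 had log2 fold changes of -0.11 and -0.13. The adhesion molecules gave 0 calls of 3 tested by edgeR, DESeq2 and limma, with 1 at an unadjusted p under 0.05 by edgeR. NRCAM had 62.8 and 65.8 CPM in shHSF1 and 67.5 and 70.3 CPM in shNTC (-0.10 ± 0.07; edgeR adjusted p = 0.26). NCAM1 had 5.52 and 5.31 CPM in shHSF1 and 4.19 and 4.28 CPM in shNTC (0.36 ± 0.14; edgeR adjusted p = 0.0702). CNTN1 overlapped, at 2.99 and 3.70 CPM in shHSF1 and 3.10 and 3.38 CPM in shNTC (0.05 ± 0.18; edgeR adjusted p = 0.861).

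ROBO1 and SEMA3B were called lower in PC9-BrM3 and higher with shHSF1, and SEMA4B was called lower in both comparisons. On 1 scale for all 8 libraries, ROBO1 averaged 3.52 ± 1.79 CPM in PC9-BrM3, 58.7 ± 3.89 in PC9 parental, 31.7 ± 2.22 in shHSF1 and 15.8 ± 0.587 in shNTC (SD, n = 2 each). SEMA4B averaged 43.7 ± 1.35 CPM in PC9-BrM3, 112 ± 13.6 in PC9 parental, 65.0 ± 5.06 in shHSF1 and 119 ± 4.83 in shNTC. SEMA3B averaged 3.25 ± 0.178 CPM in PC9-BrM3, 8.45 ± 0.901 in PC9 parental, 18.8 ± 2.52 in shHSF1 and 14.4 ± 0.341 in shNTC.

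The level in the hairpin-carrying PC9-BrM3 cells did not always match that in untransduced PC9-BrM3, as the values of ROBO1, SEMA4B and SEMA3B above show. SEMA3D stood at 0 CPM in PC9-BrM3, 4.37 ± 0.24 in PC9 parental, 0.0409 ± 0.0215 in shHSF1 and 0.0343 ± 0.00995 in shNTC. CNTN1 had 0.015 ± 0.0213 CPM in PC9-BrM3, 5.17 ± 0.506 in PC9 parental, 3.19 ± 0.481 in shHSF1 and 3.14 ± 0.212 in shNTC. The 4 transduced libraries held 111 to 145 counts of CNTN1 each, while the untransduced PC9-BrM3 libraries held 0 and 1. SEMA5A averaged 92.2 ± 18.2 CPM in PC9-BrM3, 42.6 ± 4.28 in PC9 parental, 36.5 ± 0.0647 in shHSF1 and 33.9 ± 2.28 in shNTC, so its hairpin groups lay below both untransduced groups. PLXND1 averaged 99.1 ± 5.69 CPM in PC9-BrM3, 46.9 ± 3.65 in PC9 parental, 83.5 ± 2.75 in shHSF1 and 84.7 ± 7.61 in shNTC. PLXNA3 averaged 24.5 ± 3.73 CPM in PC9-BrM3, 10.8 ± 1.16 in PC9 parental, 50.4 ± 5.1 in shHSF1 and 43.5 ± 6.66 in shNTC. Both plexins were thus lowest in PC9 parental cells. UNC5B averaged 19.5 ± 1.8 CPM in PC9-BrM3, 36.2 ± 4.86 in PC9 parental, 15.4 ± 2.69 in shHSF1 and 17.1 ± 4.25 in shNTC, where only PC9 parental stands clear. PLXNB2 averaged 194 ± 13.2 CPM in PC9-BrM3, 188 ± 21.3 in PC9 parental, 565 ± 3.74 in shHSF1 and 511 ± 8.22 in shNTC. PLXNA1 averaged 58.1 ± 3.23 CPM in PC9-BrM3, 72.9 ± 1.95 in PC9 parental, 205 ± 12.8 in shHSF1 and 274 ± 19.6 in shNTC. These plexins were more abundant in the transduced than in the untransduced libraries. No test was made between untransduced and transduced libraries.

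**Figure D3:**
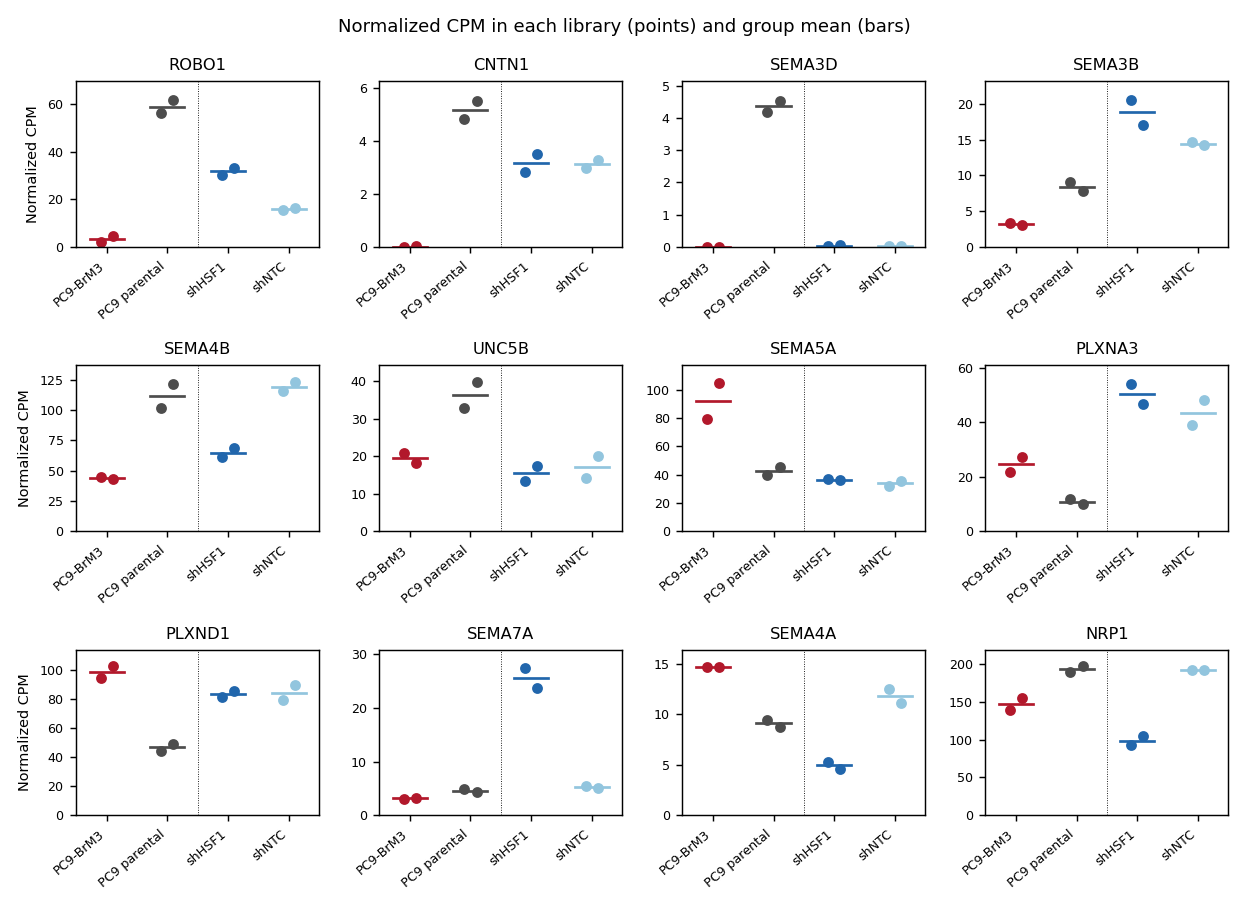
Normalized CPM on 1 scale over all 8 libraries (vertical axis, linear, from 0) for 12 genes, with a point per library, a bar at each group mean, and a dotted line between the untransduced and the transduced groups. CNTN1 is at 0 and 1 counts in PC9-BrM3 but near 3 CPM in both transduced groups of the same subline, while SEMA3D is near 0 in all but PC9 parental.

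Other genes of these pathways were counted from 4 lists, also chosen with earlier results of these data known. Over all tested genes of the subline comparison 3.87% were called higher and 3.27% lower. These shares are at the adjusted cutoff and do not apply to counts at an unadjusted p. In PC9-BrM3, 1 of 10 tested further ligands and receptors was higher and 0 lower, with 7 at an unadjusted p under 0.05 (median log2 fold change 0.11). The gene was PLXNB3, with 1.78 and 2.14 CPM in PC9-BrM3, against 0.154 and 0.292 CPM in PC9 parental cells (log2 fold change 3.13 ± 0.42, SE; edgeR adjusted p = 0.0153). Of 11 EPH receptors 0 were called by edgeR, 5 had an unadjusted p under 0.05, and DESeq2 called 2 and limma 1, all higher. Of 8 further adhesion genes 1 was higher and 3 lower. L1CAM, the adhesion molecule that lets metastatic cells spread along brain capillaries, had 143 and 133 CPM in PC9-BrM3, against 3.24 and 3.0 CPM in PC9 parental cells (5.47 ± 0.18; edgeR adjusted p = 0.00156). ALCAM, an adhesion molecule of axon bundles, had 102 and 144 CPM in PC9-BrM3, against 468 and 473 CPM in PC9 parental cells (-1.94 ± 0.21; edgeR adjusted p = 0.00876). NPTN, which encodes neuroplastin, had 69.4 and 73.5 CPM in PC9-BrM3, against 121 and 128 CPM in PC9 parental cells (-0.80 ± 0.14; edgeR adjusted p = 0.0311). NLGN1, a neuroligin, had no count in PC9-BrM3, against 134 in PC9 parental cells, at least 35.3-fold lower with 3 counts over the group as the limit. NLGN1 passed the filter through PC9 parental cells alone, so the count of lower adhesion genes is a description.

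Among 45 intracellular effectors 3 were higher and 0 lower in PC9-BrM3, with 10 at an unadjusted p under 0.05, and DESeq2 and limma each called 5 higher and 0 lower. The share called by edgeR at the adjusted cutoff is near the 7.14% called over all tested genes, so it is no result about the effectors as a list. LIMK2, a kinase of the actin-severing protein cofilin, had 44.2 and 36.0 CPM in PC9-BrM3, against 10.1 and 10.0 CPM in PC9 parental cells (log2 fold change 2.00 ± 0.18, SE; edgeR adjusted p = 0.00568). SRGAP3, a GTPase-activating protein of the family named for slit and robo, had 13.7 and 18.4 CPM in PC9-BrM3, against 2.73 and 4.31 CPM in PC9 parental cells (2.19 ± 0.30; edgeR adjusted p = 0.017). NCK2, an adaptor between receptors and actin regulators, had 21 and 32.8 CPM in PC9-BrM3, against 10.8 and 10.2 CPM in PC9 parental cells (1.36 ± 0.25; edgeR adjusted p = 0.0367). The counts of these lists moved when 1 library was left out. They tended to be lower without a PC9 parental library and higher without a PC9-BrM3 library. The count over all tested genes moved the same way, so these shifts are no results about the lists.

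With shHSF1, 4 of 9 tested further ligands and receptors were higher and 3 lower, 5 and 3 of 9 EPH receptors, 6 and 0 of 8 further adhesion genes, and 17 and 16 of 45 effectors. Over all tested genes of this comparison 22.2% were called higher and 23.5% lower. The median log2 fold changes of these lists were -0.13, 0.30, 0.79 and 0.05. ROBO4, an endothelial robo, had 4.29 and 2.03 CPM in shHSF1, against 0.363 and 0.447 CPM in shNTC (2.97 ± 0.41, SE; edgeR adjusted p = 0.000281). RGMB and RGMA, ligands of neogenin, and the netrin receptor UNC5A had log2 fold changes of 0.95, 1.24 and 0.48 (edgeR adjusted p of at most 0.00118). PLXNA4 had 0.728 and 0.558 CPM in shHSF1, against 2.59 and 3.19 CPM in shNTC (-2.15 ± 0.26; edgeR adjusted p = 0.00011). FLRT3, an UNC5 ligand, and PLXNB3 had -1.48 and -0.78 (edgeR adjusted p = 0.000206 and 0.00669). EPHA2, a receptor of EFNA1, rose by 0.68 ± 0.05 on the log2 scale, and EPHB6, which lacks kinase activity, had -0.82 ± 0.08 (edgeR adjusted p = 8.82e-06 and 2.29e-05). EPHA4, EPHB4 and EPHB2 had log2 fold changes of 0.38, 0.31 and 0.30, and EPHA1 and EPHA10 of -0.64 and -0.32 (edgeR adjusted p of at most 0.036). L1CAM had 148 and 117 CPM in shHSF1, against 37.5 and 34.3 CPM in shNTC (1.88 ± 0.11; edgeR adjusted p = 2.6e-06). ALCAM had 458 and 497 CPM in shHSF1, against 290 and 279 CPM in shNTC (0.75 ± 0.06; edgeR adjusted p = 9.9e-06). Untransduced PC9-BrM3, on the scale of its own comparison, had 143 and 133 CPM of L1CAM and 102 and 144 CPM of ALCAM. For both genes shNTC thus lay away from the untransduced subline, lower for L1CAM and higher for ALCAM, which was not tested. NPTN had 138 and 140 CPM in shHSF1, against 78.7 and 76.7 CPM in shNTC (0.84 ± 0.06; edgeR adjusted p = 4.05e-06), and the neuroligin NLGN2 had a log2 fold change of 0.64 (edgeR adjusted p = 9.63e-05). CHN1, a GTPase-activating protein of Rac that acts downstream of EPHA4, had 16.6 and 20.5 CPM in shHSF1, against 3.08 and 3.52 CPM in shNTC (2.50 ± 0.15; edgeR adjusted p = 1.27e-06). LIMK2 had 16.4 and 15.0 CPM in shHSF1, against 27.0 and 25.2 CPM in shNTC (-0.73 ± 0.10; edgeR adjusted p = 0.00021). The kinase FYN, MICAL2, which oxidises actin, and the exchange factor TRIO had log2 fold changes of 0.92, 0.71 and 0.61, and RGS3, SRGAP1 and RASA1 of -0.87, -0.57 and -0.46 (edgeR adjusted p of at most 0.000286). With all 8 libraries in 1 fit the effectors had 8 higher and 8 lower, and EPH receptors 2 and 2. Over all genes that fit called 1669 higher and 2262 lower, against 3739 and 3962 in the main analysis.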

How the data were processed

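Raw read counts per gene were deposited for 8 libraries. Reads were counted by the authors using featureCounts 1.6.1, per the file headers, on exons of an Ensembl GRCh37 annotation with the reverse-stranded setting, which separates antisense partners. Trim Galore, HISAT2 and DESeq2 are also named per the submitters' processing notes. Symbols were found for 81.9% of IDs and for all 48 members. Groups came from the sample titles. Replicates differed by more than sampling noise, most of all in PC9-BrM3. The chi-square per degree of freedom was 335 in PC9-BrM3, 27.7 in PC9 parental cells, 26.6 in shNTC and 12 in shHSF1. The 4 libraries of a comparison were fitted alone with edgeR 4.0.16 under R 4.3.3. Genes had to pass filterByExpr (count 10, total 15), TMM factors and the robust quasi-likelihood F test were used, and p-values were adjusted by Benjamini-Hochberg over all tested genes. Each SE of a log2 fold change was back-calculated from that test. It is the size of the unshrunken log2 fold change divided by the square root of F, while the printed fold changes are edgeR's shrunken ones. CPM use TMM-scaled library sizes per comparison, or over all 8 libraries where stated. TPM use the files' exon lengths without mitochondrial genes. Alternatives included DESeq2 1.42.0 and limma 3.58.1. Replicate numbers do not pair the libraries. The members and lists were chosen with earlier results of these data known. Members called in either comparison, or at 10 CPM or more in a family with a called member, are given in every library, and up to 4 called genes are named per further list, direction and comparison.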

Additional observations from a re-analysis of the deposited data

How the results depend on the processing

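Leaving out 1 library changed the counts in the subline comparison, with 0 to 9 members higher (3 in the main analysis) and 3 to 19 lower (6). When a single library stands for a group, it is assumed to vary like the other group. Members called higher and lower numbered 6 and 9 with DESeq2, 6 and 14 with no count filter, and 7 and 16 with all 8 libraries in 1 fit, where the transduced libraries share the estimate of spread. With sample quality weights in limma they were 4 and 9, and with mitochondrial genes left out, an alternative chosen after seeing the data, 3 and 6. Over all genes, 672 were higher and 568 lower, against 182 to 4702 and 220 to 4526 with 1 library left out. In the knockdown the counts of 6 higher and 10 lower moved to 3 and 7 with all 8 libraries in 1 fit, and to 4 to 5 and 9 without 1 library. With a replicate block, members called were 3 and 7 in the subline comparison and 6 and 10 in the knockdown. The replicate differences of the 2 groups correlated at -0.00972 and 0.0166 over genes, so the samples share only a number. No member with a call changed direction in these alternatives. The cause of the other shifts was not tested. In the further lists, all 8 libraries in 1 fit gave 8 effectors higher and 3 lower in the subline comparison and 8 and 8 in the knockdown. Members without a count are limited by depth, at up to 0.0529 to 0.0894 CPM per library.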
